A study of Mus musculus with 2 samples.

Results

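The Lhx genes encode transcription factors with LIM domains and a homeodomain. The mouse has 8 of them (Lhx1, Lhx2, Lhx3, Lhx4, Lhx5, Lhx6, Lhx8 and Lhx9), and all 8 were named in the H3K27me3 list of rib chondrocytes, by 25 of its 2017 regions. The regions of a gene are the rows that the list assigns to its symbol, which places them within 5000 bp of the gene. The cells were chondrocytes from the ribs of 11 wild-type CD1 mice at postnatal day 2.5, pooled and cultured overnight on 2 dishes of 10 cm in medium with, per the labels, 5% serum. The labels name no agent, and overnight culture is the only treatment given. All samples share this genotype and handling. H3K27me3, the histone mark placed by PRC2, was measured by ChIP-seq in 1 library precipitated with an H3K27me3 antibody and 1 library of input DNA, which was 2% of the chromatin and was not precipitated. There were no replicates, so that no difference between animals or cultures could be measured.

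LIM-homeodomain factors specify cell types in the nervous system and several other organs. The LIM domains bind protein partners, above all the cofactor Ldb1, and the homeodomain binds DNA. The 8 genes form paralog pairs, Lhx1 with Lhx5, Lhx2 with Lhx9, Lhx3 with Lhx4, and Lhx6 with Lhx8. PRC2 keeps many such developmental genes silent in cells of other lineages, and in mammals it is found above all at promoters rich in CG dinucleotides.

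Promoters of 7 of the 8 genes were found in the RefSeq table (build GRCm38.p6), with 11 start sites in all, and Lhx5 had no entry. The 250 bases before the start are given 5′ to 3′, with every CG in capitals, a motif that reads the same on both strands. They are printed for Lhx1, Lhx2 and Lhx3, which had a region within 2500 bp of a 5′ end in the list. Lhx9 also had such a region, but its bases are not printed. The 250 bases are also printed for Lhx8, whose single region lay further from the 5′ end.
Lhx1 (chr11:84525535-84525784, minus strand): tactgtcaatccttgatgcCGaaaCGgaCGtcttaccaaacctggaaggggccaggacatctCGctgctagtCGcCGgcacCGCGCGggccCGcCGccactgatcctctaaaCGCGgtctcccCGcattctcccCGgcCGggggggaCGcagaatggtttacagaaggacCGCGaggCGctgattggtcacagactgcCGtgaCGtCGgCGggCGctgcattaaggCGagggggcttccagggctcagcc
Lhx2, downstream start (chr2:38351058-38351307, plus strand): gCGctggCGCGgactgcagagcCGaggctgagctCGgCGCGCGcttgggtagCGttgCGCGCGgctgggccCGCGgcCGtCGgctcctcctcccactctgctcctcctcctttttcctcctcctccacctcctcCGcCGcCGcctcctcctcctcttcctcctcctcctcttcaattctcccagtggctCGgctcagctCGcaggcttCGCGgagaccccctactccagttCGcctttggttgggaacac
Lhx2, upstream start (chr2:38339031-38339280, plus strand): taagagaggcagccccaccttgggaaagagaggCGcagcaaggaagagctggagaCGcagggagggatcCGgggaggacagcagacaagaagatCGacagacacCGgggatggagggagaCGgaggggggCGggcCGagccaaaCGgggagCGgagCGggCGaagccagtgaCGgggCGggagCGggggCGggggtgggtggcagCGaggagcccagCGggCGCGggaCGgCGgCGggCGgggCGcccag
Lhx3, downstream start (chr2:26206576-26206825, minus strand): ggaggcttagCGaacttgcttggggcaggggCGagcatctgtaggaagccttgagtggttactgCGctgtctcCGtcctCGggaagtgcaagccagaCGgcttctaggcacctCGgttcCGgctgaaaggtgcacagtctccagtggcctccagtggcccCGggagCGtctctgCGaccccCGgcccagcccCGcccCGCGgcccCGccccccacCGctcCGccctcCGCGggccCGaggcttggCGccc
Lhx3, upstream start (chr2:26208250-26208499, minus strand): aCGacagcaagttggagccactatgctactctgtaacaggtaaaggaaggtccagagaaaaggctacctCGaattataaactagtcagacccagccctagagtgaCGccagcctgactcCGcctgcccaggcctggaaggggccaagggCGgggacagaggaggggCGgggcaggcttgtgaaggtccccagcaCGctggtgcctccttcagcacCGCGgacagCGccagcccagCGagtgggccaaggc
Lhx8 (chr3:154330561-154330810, minus strand): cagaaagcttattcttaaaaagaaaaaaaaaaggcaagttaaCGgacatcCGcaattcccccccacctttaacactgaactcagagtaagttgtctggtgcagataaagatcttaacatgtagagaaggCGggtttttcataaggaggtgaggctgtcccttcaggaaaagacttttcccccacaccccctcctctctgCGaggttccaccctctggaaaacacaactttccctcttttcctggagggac
The Lhx1 sequence held 26 CG dinucleotides, more than 90.4% of the 32851 promoters in the table. The Lhx2 starts held 24 and 25, the downstream start of Lhx3 held 22 and its upstream start 11. By contrast, Lhx8 held 4, below the median of 6 for all promoters. Lhx9, which is not printed, also held 4. Lhx4 held 14, and the 3 starts of Lhx6 held 7, 17 and 14. At least one CG was present in 92.1% of all promoters, so that its presence alone is common. The median over the 11 Lhx starts was 14, beside 13 for the 806 promoters of genes that the list names. Whether the number of CG goes with the distance of the regions was not tested. Lhx1, Lhx2 and Lhx3 had their nearest regions 983, 408 and 204 bp from the 5′ end. Lhx4, with 14 CG, had its nearest region 5957 bp from the 5′ end, and Lhx8, with 4, had its region at 5323 bp. Lhx6, with up to 17, had none within 2500 bp. Lhx9 had a region 1367 bp from a 5′ end, but the listed distances can point to 5′ ends 5135 bp apart. Which of them is its RefSeq start, with 4 CG, was not determined. The list is on the older build mm9, and which RefSeq start each region lies next to was therefore not determined for genes with several starts. A printed start of such a gene need not lie next to a region.

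**Figure D1:**
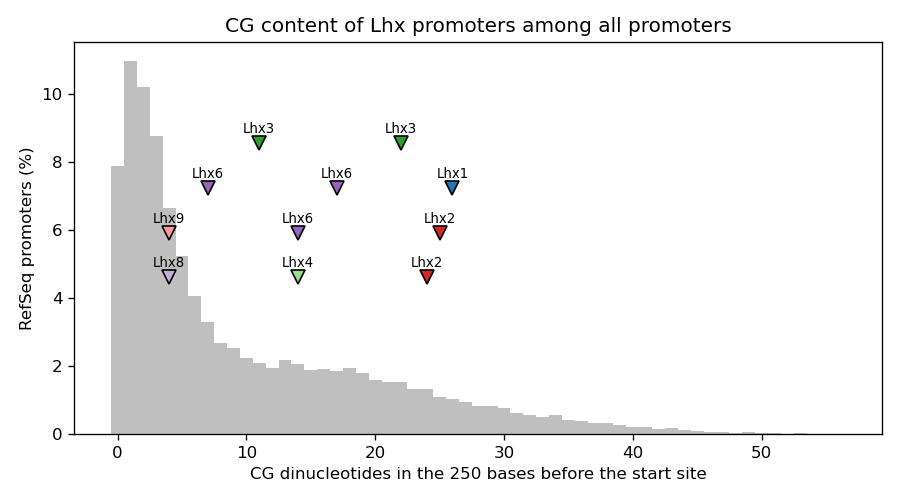
The histogram gives the share of RefSeq promoters (y axis, percent) by the number of CG dinucleotides in the 250 bases before the start (x axis), and each triangle is a start site of an Lhx gene, at a height chosen for legibility. Lhx1, both Lhx2 starts and a start of Lhx3 lie between 22 and 26, whereas Lhx8 and Lhx9 lie at 4.

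The list came from QuEST, run by the authors on reads aligned to mm9. It builds a smoothed profile of read positions (tags) and reports the stretches in which ChIP stands above input. Of 21900 protein-coding genes in RefSeq, 3.9% were named by any region, compared with 8 of 8 Lhx genes. A region overlapped 7 of the 8 genes, all but Lhx1, beside 2.53% of protein-coding genes. A region lay within 2500 bp of the 5′ end at 5 of the 8 (Lhx1, Lhx2, Lhx3, Lhx5 and Lhx9), beside 2.2%. The study also drew on a further H3K27me3 series that is not used here and links more genes to the mark than this list names, so that the shares and every statement that a gene was not named hold for this list alone. Genes are not independent replicates, and the family was chosen with earlier results of these data known.

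Most of the Lhx genes also had several regions. The list named 922 genes, and 586 of them had a single region. The median was 1 region and 1535 bp per gene over these 922 genes, and 3 regions and 4972 bp over the Lhx genes. At least 3 regions were found at 6 of 8 Lhx genes, all but Lhx8 and Lhx9. That many were found at 0.598% of protein-coding genes and at 15.9% of the 922 listed genes. Lhx3, with 6 regions, was exceeded by 7 genes of the list. These counts depend on how neighbouring stretches were split into regions. With regions within 3000 bp of each other merged, no Lhx gene had more than 2, and Lhx3 and Lhx4 had 1 each. The shares of all genes are for unmerged regions.

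**Figure D2:**
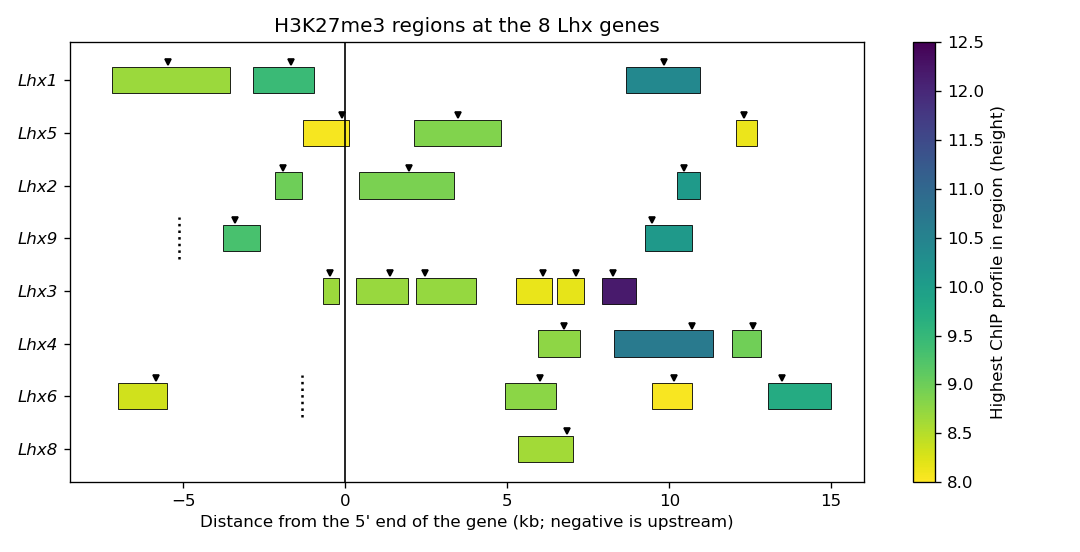
Each bar is an H3K27me3 region, placed by its distance in kb from the 5′ end of the gene (x axis, negative is upstream), with one line per gene, and the triangle marks the highest point of the ChIP profile. Colour gives that height, and dotted lines mark a second 5′ end implied by the listed distances at Lhx9 and Lhx6. For Lhx9 the line at 0 is the 5′ end further downstream. The Lhx3 regions form a nearly closed chain from upstream of the gene to beyond its 3′ end, and those of Lhx4 lie between 5957 and 12817 bp downstream of the 5′ end.

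The 5′ ends in the map were worked out from the distances in the list. All regions of Lhx1, Lhx2, Lhx3, Lhx4 and Lhx5 that do not cover the 5′ end pointed to a single position for each gene. At Lhx6, 3 regions pointed to one 5′ end and the upstream region to another, 1348 bp further upstream. The 2 regions of Lhx9 pointed to 5′ ends 5135 bp apart if each lies downstream of its own. For Lhx8, with 1 region, the strand was taken from RefSeq. Positions are given in mm9 as in the list, which does not state whether it counts from 0 or 1.

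Lhx1, which is needed for head formation and for kidney and reproductive tract development, had 3 regions on chromosome 11, and none of them overlapped the gene. Upstream, the region chr11:84340019-84341880 began 983 bp from the 5′ end and held 102 ChIP tags and 8 input tags. The next, chr11:84342598-84346247, was the longest of the 25 at 3649 bp, with 179 ChIP tags and 15 input tags. Both regions lay on the upstream side of the gene, as do the bases printed for Lhx1. The last region, chr11:84328090-84330370, lay 2511 bp beyond the 3′ end with 135 ChIP tags and 18 input tags. It was closer to Aatf, at 1087 bp from the 5′ end of that gene, so that its assignment to Lhx1 is not unique. The ratio of ChIP to input over the 3 regions of Lhx1 was 10.1 (95% Clopper-Pearson interval 7.35 to 14.3), from 416 and 41 tags. Library totals are unknown here, so that no ratio is adjusted for sequencing depth, and the intervals cover counting error only.

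Lhx5, the paralog of Lhx1 with a role in the developing hippocampus and forebrain, was the only member with a region over its 5′ end. This region, chr5:120880587-120882003, held 74 ChIP tags and 12 input tags, and its height of 8.06 was close to the lowest in the list, just over 8. A longer region inside the gene, chr5:120884030-120886697, began 2135 bp from the 5′ end and held 131 ChIP tags and 10 input tags. The last region lay 2495 bp beyond the 3′ end, with 35 ChIP tags and 6 input tags. The ratio over the gene was 8.57 (5.78 to 13.2), from 240 ChIP and 28 input tags. Thus the paralogs both had 3 regions, but at Lhx1 these flanked the gene and at Lhx5 they also covered it.

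Lhx2, a regulator of eye, cortex and hair follicle development, had 3 regions on chromosome 2. The region chr2:38207236-38210195 lay in the gene 408 bp from the 5′ end and held 143 ChIP tags and 26 input tags, the most input tags of any Lhx region. A region of 46 ChIP tags and 10 input tags lay 1323 bp upstream of the 5′ end. The stretch of 1731 bp between these regions, which holds the 5′ end, was not listed. Another region 10225 bp inside the gene held 45 ChIP tags and 3 input tags and had a height of 10.1. The ratio over the gene, from 234 ChIP and 39 input tags, was the lowest value of the family at 6.0 (4.26 to 8.65). This place changed under some other settings. With at least 5 input tags, Lhx2 had 5.25 and Lhx3 5.125. With the input set to at least the caller's floor, Lhx2 had 5.34 and Lhx8 5.30. With a −log10 q-value of at least 50, Lhx2 stayed lowest at 5.5.

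Lhx9, which is required for gonad formation, had 2 regions on chromosome 1, both in the gene and 11880 bp apart. The region chr1:140728333-140729779 held 94 ChIP tags and 10 input tags at a height of 10.1. The region chr1:140741659-140742789 lay 1367 bp from a 5′ end and held 66 ChIP tags and 12 input tags. Both exceeded the median ChIP density of the list, 54.5 tags per kb, with 65.0 and 58.4 tags per kb. The ratio of Lhx9 was 7.27 (4.64 to 11.9), from 160 ChIP tags and 22 input tags.

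Lhx3, which acts in the pituitary and in motor neurons, had the most regions of the family. Its 6 regions lay between 26053092 and 26062755 on chromosome 2 and covered 71.6% of that stretch, with gaps of 151 to 1253 bp. The 5′ end fell in a short gap. Upstream of it, at 204 bp, a region of 475 bp held 30 ChIP tags and 1 input tag, and downstream of it, at 331 bp, a region of 1601 bp held 77 ChIP tags and 15 input tags. The printed downstream start of Lhx3 has 22 CG dinucleotides and the upstream start 11. Inside the gene, 2 more regions held 106 and 58 ChIP tags against 18 and 13 input tags. The remaining regions lay 178 and 1576 bp beyond the 3′ end, with 46 and 65 ChIP tags and 10 and 3 input tags.

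The outermost of these, chr2:26053092-26054156, had the highest profile of all Lhx regions. Its ChIP height was 12.2 and its input height 0.0112, and 98.3% of the regions in the list had a lower ChIP height. The ratio there was 21.7, but with 3 input tags its interval ran from 7.09 to 108. The ratio over the 6 regions was 6.37 (4.84 to 8.50), from 382 ChIP and 60 input tags. Of the 6 regions, 3 were also assigned to the neighbouring gene Qsox2, at distances of 1895 to 4746 bp, and without these Lhx3 kept 3 regions.

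Lhx4, the paralog of Lhx3 with a role in the pituitary and in motor neurons, had a different layout of listed regions. Its 3 regions lay side by side inside the gene, 5957 to 12817 bp from the 5′ end, and none was listed within 2500 bp of that end. The middle region, chr1:157577820-157580867, had the best rank of all Lhx regions, 53 of 2017, with 181 ChIP tags and 18 input tags over 3047 bp. Its neighbours held 70 ChIP tags with 10 input tags and 49 ChIP tags with 0 input tags. For the last, the lower 95% bound of the ratio was 12.8. The ratio over the gene was the highest of the family, 10.7 (7.26 to 16.4), from 300 ChIP tags and 28 input tags. That place was not stable: with at least 5 input tags, or a −log10 q-value of at least 50, Lhx4 had 8.96 and Lhx1 10.1. With the input set to at least the caller's floor, Lhx4 had 6.26 and Lhx9 6.32. The listed regions of Lhx3 therefore ran along most of the gene, and those of Lhx4 formed a single block of the gene body. This contrast rests on 1 library and on the height cutoff of 8. All Lhx3 regions but the one with the highest profile had heights of only 8.15 to 8.72. With a height of at least 10, each of these genes kept 1 region. The lengths of the genes were not compared.

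Lhx6, which directs the migration and identity of cortical interneurons, had 4 regions on chromosome 2. In the gene, at 13054, 9462 and 4928 bp from the 5′ end, 3 regions held 110, 65 and 77 ChIP tags against 22, 6 and 12 in input. The region chr2:35965090-35966585 lay 4162 bp upstream of the nearest 5′ end, with 82 ChIP tags and 10 input tags. None was within 2500 bp of a 5′ end. The ratio was 6.68 (4.95 to 9.18), from 334 ChIP tags and 50 input tags.

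Lhx8, which acts in cholinergic neurons of the basal forebrain, in the palate and in the oocyte, was the least covered member. Its single region, chr3:153986481-153988201, lay in the gene 5323 bp from the 5′ end and held 84 ChIP and 10 input tags (ratio 8.40, interval 4.35 to 18.2). Its height of 8.62 was lower than the median of the list, 8.68. A weaker mark elsewhere at Lhx8 was not detectable, since the list holds only regions with a height over 8.

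**Figure D3:**
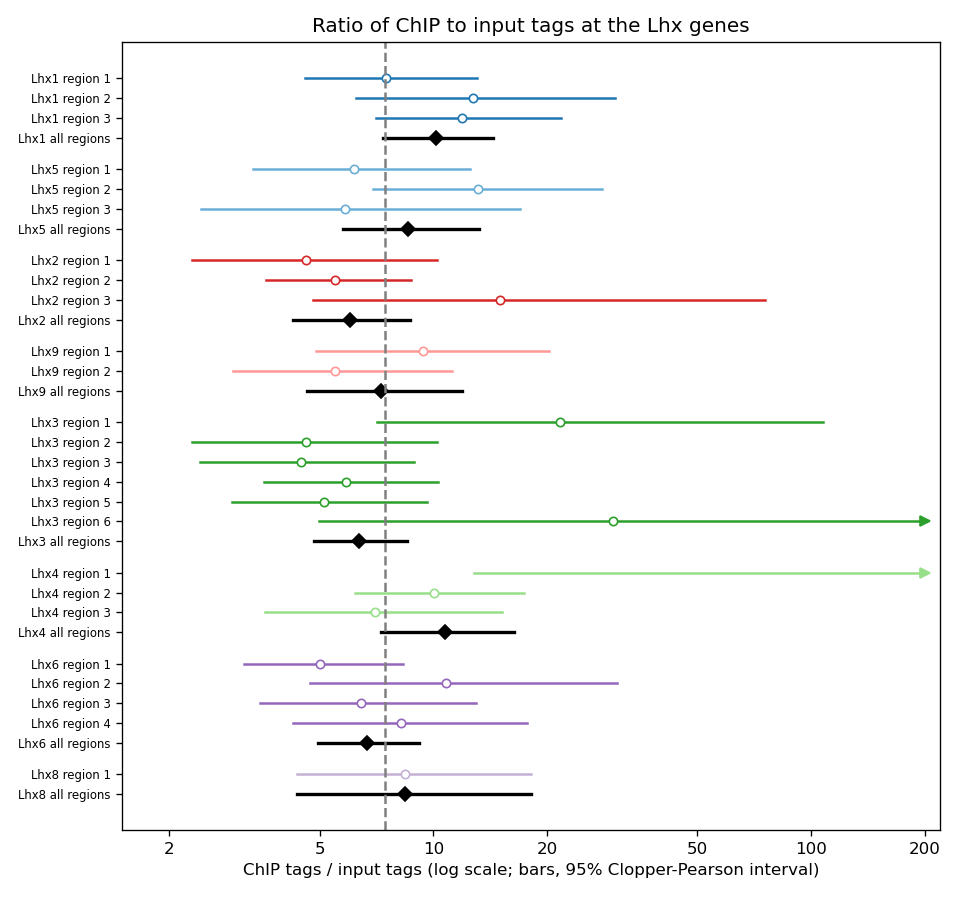
Open circles give the ratio of ChIP to input tags of each region, numbered along the chromosome, and diamonds give the ratio of each gene over its regions (x axis, log scale), with 95% Clopper-Pearson intervals. The dashed line is the ratio over all regions of the list, 7.47, and arrows mark intervals that run past the axis, among them the Lhx4 region without input tags. The intervals of all 8 genes include the dashed line.

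The order of the ratios, from Lhx4 and Lhx1 at the top through Lhx5, Lhx8, Lhx9, Lhx6 and Lhx3 to Lhx2, was not resolved by the counts. Of the 28 pairs of genes, 0 differed after Benjamini-Hochberg adjustment (two-sided Fisher's exact test on the tags), and 4 had an unadjusted p-value under 0.05. The largest difference was between Lhx4 and Lhx2, an odds ratio of 1.78 with a 95% interval of 1.04 to 3.11 (Fisher's exact test, p = 0.0274, adjusted p = 0.240). The other 3 of these pairs were Lhx4 with Lhx3, Lhx1 with Lhx2 and Lhx1 with Lhx3, also with an adjusted p of 0.240 by Fisher's exact test. Such a test compares loci within these libraries and not conditions. By paralog pair, the ratios were 9.51 (7.41 to 12.4) for Lhx1 and Lhx5, 7.75 (6.20 to 9.79) for Lhx3 and Lhx4, 6.97 (5.31 to 9.29) for Lhx6 and Lhx8, and 6.46 (4.92 to 8.60) for Lhx2 and Lhx9. These intervals overlap.

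Over all 25 Lhx regions, with 2150 ChIP and 278 input tags, the ratio was 7.73 (6.82 to 8.79), and the interval includes the 7.46 of the other 1992 regions. The regions were longer than most, with a median of 1446 bp compared with 1066 bp for the whole list. They held a median of 77 ChIP tags compared with 56. Per kb there was little between them, with a median of 54.8 ChIP tags per kb at the Lhx genes and 54.5 in the whole list. A ChIP height of at least 10 was reached by 5 of the 25 regions, or 20%, and by 13.1% of all regions. These 5 lay one each at Lhx1, Lhx2, Lhx3, Lhx4 and Lhx9, while 0.708% of protein-coding genes had such a region. None of them was within 2500 bp of a 5′ end, compared with 36% of the 25 Lhx regions and 40.7% of the region-gene assignments in the list. The share among all regions of that height was not computed, so that nothing particular to the 5 is read from this.

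**Figure D4:**
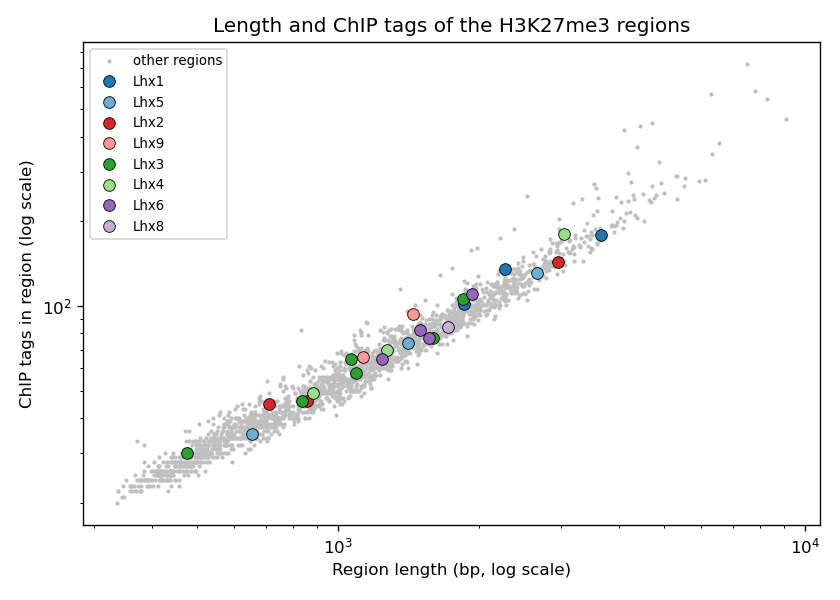
Each point is a region of the list, by its length in bp (x axis, log scale) and its number of ChIP tags (y axis, log scale), with the 25 Lhx regions in colour and the others in grey. The Lhx regions, from 475 to 3649 bp and from 30 to 181 ChIP tags, lie within the band of the other regions.

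Input was uneven along the genes. The input profile rose above 2 in 3 of the 25 Lhx regions, or 12%, compared with 6.25% of all regions. These were the Lhx3 region 2172 bp from the 5′ end, with an input height of 2.80, the Lhx2 region 408 bp from the 5′ end, with 2.62, and the Lhx9 region of 94 ChIP tags, with 2.36. In these regions the ratio of ChIP to input height in the list was 3.11, 3.40 and 4.28. That these are the lowest among the Lhx regions follows from the choice by input height, which is the divisor of the ratio. What raised the input there was not tested.

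By position, 15 of the 25 regions lay inside the gene, 5 upstream, 4 beyond the 3′ end and 1 over the 5′ end. The shares were 60%, 20%, 16% and 4%, beside 50.9%, 26.8%, 16.3% and 6.06% over the 1535 assignments of a region to a gene in the list. Regions within 2500 bp of a 5′ end made up 36% at the Lhx genes and 40.7% in the list. These shares were not tested, since regions of a gene share its locus.

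**Figure D5:**
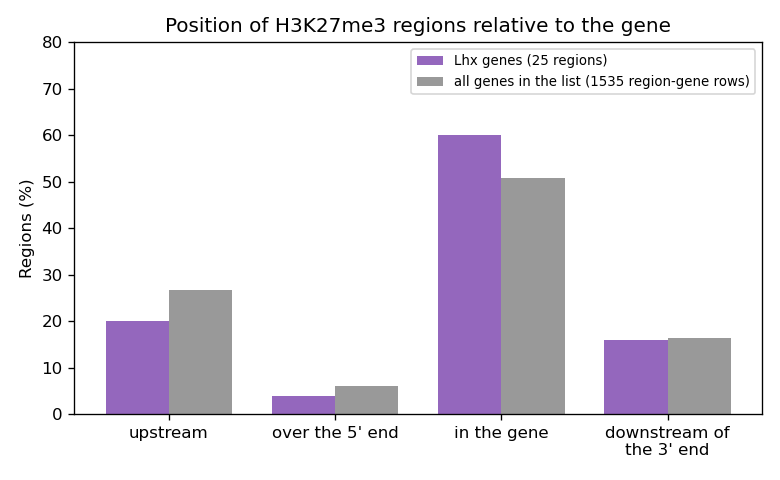
Bars give the share of regions (y axis, percent) in 4 positions relative to the gene, for the 25 Lhx regions and for all 1535 region-gene assignments of the list. Regions inside the gene make up 60% of the Lhx regions and 50.9% of all assignments.

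The other LIM-homeodomain genes were named as well. All 4 of them, Isl1, Isl2, Lmx1a and Lmx1b, had at least 1 region, beside 3.9% of protein-coding genes. Lmx1b, which patterns the dorsal limb, had 6 regions, as many as Lhx3, and a ratio of 7.13 (5.60 to 9.19), from 542 ChIP and 76 input tags. Its 10560 bp and its ChIP tags exceeded those of every Lhx gene, of which Lhx1 had the most, with 7790 bp and 416 ChIP tags. At Lmx1a, 3 regions held 110 ChIP and 6 input tags. Isl2 had 1 region of 86 ChIP tags and 8 input tags. Isl1, a motor neuron and heart factor, had 1 short region of 622 bp with 36 ChIP tags and 0 input tags, and that region lay 12117 bp from the 5′ end.

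Genes for other proteins of the LIM system were counted in the same way. Among the LIM-only genes, whose products carry LIM domains without a homeodomain, 1 of 4 was named, beside 3.9% of protein-coding genes. This was Lmo2, a blood and vessel factor, with 2 regions of 73 ChIP tags and 3 input tags in all. None of the 6 cofactor genes (Ldb1, Ldb2, Rlim, Ssbp2, Ssbp3 and Ssbp4) was named by a region, a count close to the background of 3.9% of protein-coding genes, so that nothing particular to the cofactors is read from it. Of 33 developmental partner genes, 23 had a region, also beside 3.9%. They included 6 of 7 genes of the basal forebrain, 4 of 5 of the eye, 3 of 4 of the gonad, 3 of 4 of the head and kidney, 3 of 5 of the limb and 2 of 3 of motor neurons. Among them, Gsx2, a forebrain homeobox gene, had 4 regions (450 ChIP and 52 input tags). Mnx1, a motor neuron gene, had 2 regions (204 and 36 tags).

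Of 17 genes that mark chondrocytes, 1 was named by a region, or 5.88%, which is close to the 3.9% of protein-coding genes. This was Ihh, the growth plate ligand, at a ratio of 3.94 (2.25 to 7.30) from 63 ChIP and 16 input tags. The list holds no expression, and the count does not check the identity of the cells, since most genes of any kind are not named. The genes Col2a1, Acan and Sox9 were among those not named.

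Other homeobox and paired-box families were compared by the same counts. Of the Pax genes 8 of 9 had a region and of the Dlx genes 6 of 6, beside 3.9% of protein-coding genes. The number of regions per named gene was 3.13 for Lhx, 3.25 for Pax and 1.83 for Dlx. The ratio of ChIP to input tags was 7.65 (6.70 to 8.76) for Pax and 8.07 (6.44 to 10.2) for Dlx, and each interval overlaps that of the Lhx regions. Regions overlapping the gene made up 64% of assignments for Lhx, 84.6% for Pax and 45.5% for Dlx. These shares were likewise not tested.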

How the data were processed

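Chondrocytes were studied with 1 H3K27me3 ChIP library and 1 input library. The authors mapped the reads to mm9 (DNA Nexus) and called regions with QuEST, with versions and settings not given in the sources used here. The deposited tag counts are whole numbers per region without normalization. The deposited signal heights are the top of the smoothed profile, the deposited ratio columns divide ChIP by input set to at least a floor (9.21 tags per kb for tags), and the deposited q-values are given as −log10. Positions and distances are the authors' own.

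Rows naming an Lhx gene were taken, and ChIP and input tags were summed per gene. Exact (Clopper-Pearson, 95%) bounds for the ChIP share were turned into bounds of the ratio. Pairs of genes were compared by Fisher's exact test with Benjamini-Hochberg adjustment. Both were run on simulated tags with a common ChIP share, or a lower share at Lhx3. The simulation follows the model that both methods assume, so that it does not cover unlike ratios between the regions of a gene. Of 922 listed names, 856 matched protein-coding genes of RefSeq (GRCm38.p6), which was used for names and promoters only. The members and lists were chosen with earlier results of these data known. Named are the 8 members, genes sharing their regions and genes of fixed lists that a region names; absent genes named in the text were added after their values were seen, and some listed genes and a gene family that was also compared are not reported here. Alternatives were a height of at least 10, a −log10 q-value of at least 50, overlap with the gene, 2500 bp from the 5′ end, merging within 3000 bp, at least 5 input tags, the floor, and the top region of each gene. Tools were scipy 1.17.1, matplotlib 3.10.9, numpy 2.4.6 and pandas 2.3.3 under Python 3.11.15.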

Additional observations from a re-analysis of the deposited data

Results flagged for a closer look

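Regions that name no gene lay near 2 of the Lhx genes and entered none of the comparisons, although ChIP tags exceeded input tags in them. Upstream of Lhx5, 8 such regions lay between 8475 and 71765 bp from the 5′ end. Their ratio of ChIP to input was 9.92 (7.13 to 14.2, 95% Clopper-Pearson), from 387 and 39 tags, compared with 8.57 (5.78 to 13.2) over the regions assigned to Lhx5. The one closest to the gene, chr5:120871309-120873420, was the largest of the 8 with 110 ChIP tags and 6 input tags, and its height of 10.1 was above that of every region assigned to Lhx5. Upstream of Lhx2, 1 region at 23294 bp from the 5′ end held 39 ChIP and 3 input tags (ratio 13.0, interval 4.13 to 65.8). No such region lay within 100000 bp of the regions of the other 6 genes. Which gene these regions belong to was not tested, and every region of the list has more ChIP than input tags.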

How the results depend on the processing

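With a ChIP height of at least 10, 5 Lhx genes, 5 regions and 8548 bp remained, with a ratio of 10.0 (7.51 to 13.6). Within 2500 bp of the 5′ end, 5 genes, 9 regions and 14823 bp remained. Regions overlapping the gene numbered 16, and merging within 3000 bp left 13. These follow from how each alternative selects or joins regions. The other 27 values of these 5 results stayed within 1.5 times the count or within the interval of the ratio, those without regions that also name another gene (an alternative chosen after seeing the data) among them. No pair of genes differed after adjustment under any alternative run, which left 10 to 28 pairs, with 0 to 5 of them at an unadjusted p-value under 0.05 (Fisher's exact test). Of 113 recomputed values at single genes, 27 moved. With the input floor, the ratios at Lhx1, Lhx5 and Lhx4 fell to 5.80, 5.50 and 6.26, below their intervals. A single library and a height cutoff of 8 limit what can be detected. No paired analysis was possible because there was 1 library of each kind.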
